A study of Mus musculus with 4 samples.

Results

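The retinoic acid genes described here are 9 genes that make, carry, break down or sense retinoic acid. They were taken from the deposited gene table by symbol, as 9 of its 23980 genes, by a rule on names and not on values, though with earlier results of these data known. They comprise the enzymes Aldh1a1, Aldh1a2, Cyp26a1 and Cyp26b1, the membrane receptor Stra6, the binding protein gene Crabp1 and the nuclear receptors Rara, Rarb and Rarg. PolyA(+) RNA was sequenced from leptotene/zygotene (L/Z) spermatocytes, germ cells that have just entered meiosis, sorted by fluorescence-activated cell sorting (FACS) from testes at 3 to 4 weeks of age. All animals were F1 hybrids of C57BL/6J and MSM/Ms. There were 4 libraries. The control group held a Dnmt3L heterozygote (Dnmt3L Het) and a Pld6 wild type (Pld6 WT), and the mutants were a Dnmt3L KO and a Pld6 KO, with 1 library each. The heterozygote carries a single mutant allele of Dnmt3L, so the controls do not share a genotype. How many animals went into a library is not given in the sources used here. Pld6 encodes a protein needed to make piRNAs, and Dnmt3l a cofactor of de novo DNA methylation, and germ cells of both mutants are lost early in meiosis.

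Retinoic acid is made from vitamin A. Retinol enters the cell, is oxidised to retinaldehyde by retinol dehydrogenases and then to retinoic acid by the ALDH1A enzymes, and is cleared by the CYP26 enzymes. Inside the nucleus it binds the receptors RARA, RARB and RARG, which sit on DNA with a retinoid X receptor (RXR) and switch target genes. In the testis retinoic acid drives spermatogonia to differentiate and to enter meiosis, and its enzymes and receptors are divided between germ cells and the somatic cells around them.

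The DNA element these receptors bind is a tandem repeat of a 6-letter unit, and the promoters of Rarb and Cyp26a1 are shown because both genes are known targets of retinoic acid and both hold such a repeat. The unit was searched in the spelling AGGTCA, in the close variant spelling AGTTCA, in the spelling with a leading guanine, GGGTCA, and in the remaining variant spelling GGTTCA. All combinations were searched on both strands, with 5 bases between the units. The windows searched ran from 250 bases before to 50 bases after each annotated start (RefSeq, GRCm38.p6). All 9 genes were matched, with 17 windows. The repeat was found in 2 of these 17 windows, those of Rarb and Cyp26a1, and in 0.0974% of all 32851 windows (32 windows of 31 genes). With 1 or 2 bases between the units, 0 of the 17 windows held a repeat, against 0.222% and 0.268% of all windows. The 150 bases before each start are printed 5′ to 3′ along the strand of the gene, with the repeat in capitals. In Rarb (chr14:16575477-16575626, minus strand) the repeat lies at -53 to -37 from an annotated start, and in Cyp26a1 (chr19:37697658-37697807, plus strand) at -32 to -16, where it reads along the opposite strand. The RefSeq gene ranges given below begin farther upstream than these starts, so the Rarb stretch lies inside the range of its gene and the last part of the Cyp26a1 stretch, repeat included, inside that of Cyp26a1.
Rarb: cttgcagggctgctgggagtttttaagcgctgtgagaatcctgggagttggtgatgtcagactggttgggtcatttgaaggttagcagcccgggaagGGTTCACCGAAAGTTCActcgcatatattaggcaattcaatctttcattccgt
Cyp26a1: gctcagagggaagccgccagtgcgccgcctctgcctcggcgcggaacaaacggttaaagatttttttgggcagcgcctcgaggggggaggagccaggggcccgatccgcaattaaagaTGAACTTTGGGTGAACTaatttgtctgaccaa
A match is a stretch of letters and does not show that a receptor was bound there.

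The libraries held between 30439943 (Pld6 KO) and 63875934 (Dnmt3L Het) fragments in genes. Pld6 was at 0.334 FPKM in Pld6 KO and at 17.2 and 19.5 FPKM in the controls, and Dnmt3l had 0 fragments in Dnmt3L KO against 101 and 46. FPKM, fragments scaled to gene length and library depth, is the level used throughout, and it can be compared between genes. All 18 L/Z markers reached 1 FPKM in each library, with summed levels of 2263 FPKM (Dnmt3L Het), 3727 FPKM (Pld6 WT), 1292 FPKM (Dnmt3L KO) and 2047 FPKM (Pld6 KO). Other cells of the testis were also present, unequally. The 16 Sertoli markers summed to 12138 FPKM in Dnmt3L Het and 15548 FPKM in Dnmt3L KO, against 344 FPKM in Pld6 WT and 906 FPKM in Pld6 KO. Among them Sox9 was at 14.6 and 22.2 FPKM in the Dnmt3L line, and at 0.778 and 1.67 FPKM in Pld6 WT and Pld6 KO. Amh was at 26.7 and 31.9 FPKM against 1.14 and 0.560 FPKM. The 13 spermatid markers summed to 7096 and 172 FPKM in Dnmt3L Het and Pld6 WT, and to 14.1 and 8.83 FPKM in Dnmt3L KO and Pld6 KO, where Catsper1 was at 0 in both. In libraries of this kind, fewer cells of a type and less RNA per cell cannot be told apart.

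Most of the retinoic acid genes differed more between the controls than between a mutant and the control of its line. The exceptions were Aldh1a2 in both lines, and Cyp26b1 and Rarb in the Pld6 line. The share of all genes for which this holds was not computed. Of the 9 genes, 8 had a mean of at least 1 FPKM over the 4 libraries and were counted. Rarb (mean 0.610 FPKM) was not. Stra6 reached that mean only through its levels in the Dnmt3L line, so its place among genes that differ between controls or lines follows in part from the filter. Of these 8, 5 differed more than 2-fold between the controls on the scale of FPKM + 1, all higher in Dnmt3L Het, namely Aldh1a1, Cyp26a1, Cyp26b1, Stra6 and Rara. Over all 14416 genes with that mean, 23.7% were so far apart (17.6% higher and 6.1% lower in Dnmt3L Het). In either mutant, 0 of 8 lay more than 2-fold beyond both controls. This bound is harder to pass for genes whose controls lie far apart, so the counts are not directly comparable. Over all genes, 1.51% (Pld6 KO) and 3.29% (Dnmt3L KO) lay that far above both controls, and 8.57% and 9.16% that far below both. Of the 8 genes, 5 lay between the controls in Pld6 KO (36.6% of all genes) and 2 in Dnmt3L KO (30.5%). By any amount, 1 of 8 was above both controls in Pld6 KO (31% of all genes) and 2 below (32.4%), and 3 were above in Dnmt3L KO (35.5%) and 3 below (34%). In 4 genes (Aldh1a1, Cyp26a1, Stra6 and Rara) both libraries of the Dnmt3L line were above both of the Pld6 line (26.1% of all genes), and in 2 genes (Crabp1 and Rarg) both were below (26.2%). In 1 gene, Cyp26b1, both mutants were above both controls (13.6% of all genes), and in 1 gene, Aldh1a2, both were below (20.7%).

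**Figure D1:**
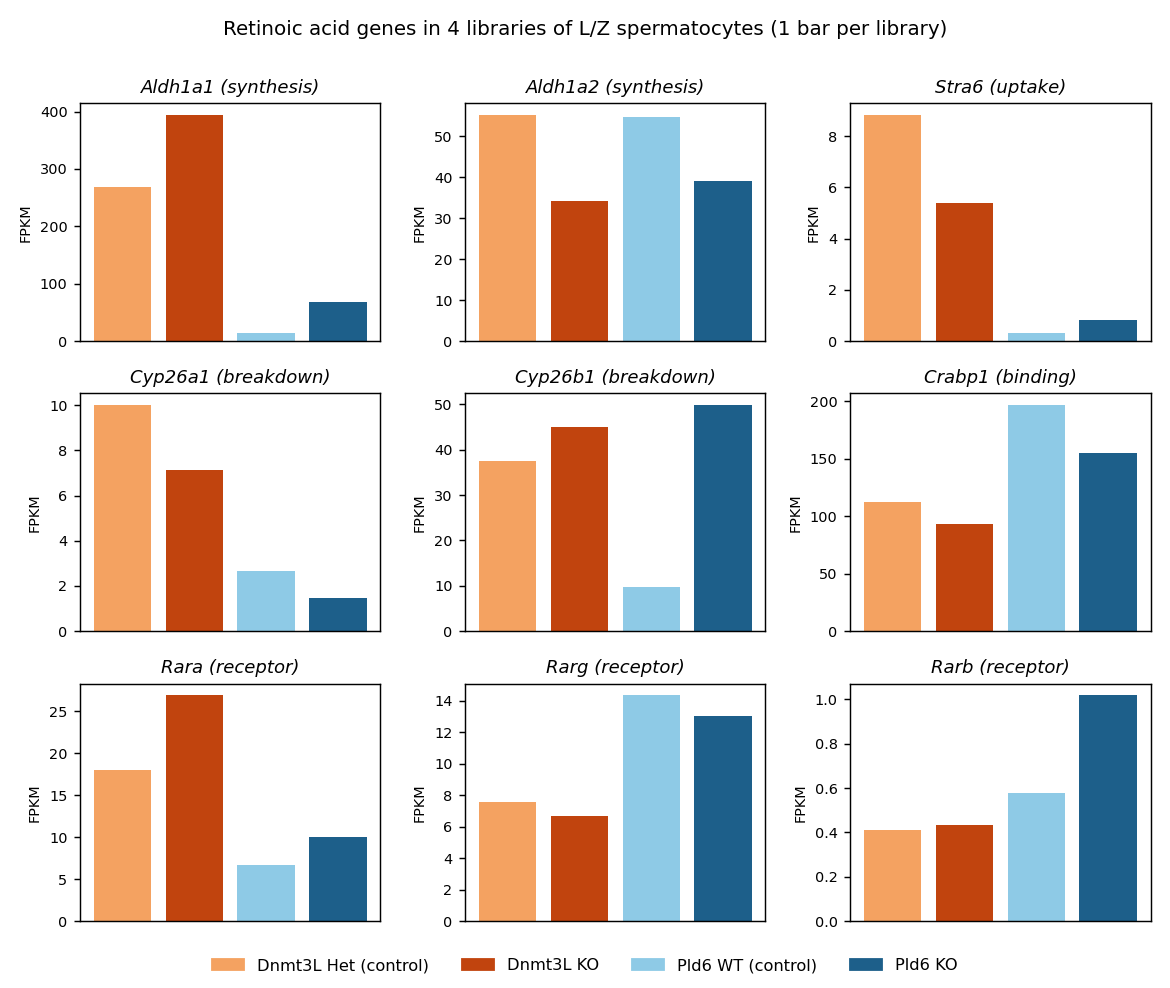
Level of each retinoic acid gene in FPKM (vertical axes from 0, on a separate scale for each gene), with 1 bar for each of the 4 libraries and no replicates. Aldh1a1, Stra6, Cyp26a1 and Rara are higher in both Dnmt3L libraries, Crabp1 and Rarg in both Pld6 libraries, and Aldh1a2 is lower in both mutants than in either control.

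By edgeR's quasi-likelihood test across 18657 genes, with Benjamini-Hochberg adjustment, the number of the 9 genes with an adjusted p under 0.05 was 0 for each mutant, and 0 had an unadjusted p under 0.05 (of all genes, 7.96% had one in Pld6 KO, and 8.81% did in Dnmt3L KO). The smallest adjusted p was 0.816 in Pld6 KO (Cyp26a1) and 0.848 in Dnmt3L KO (Rara). DESeq2 also called 0 of 9, with 1 gene at an unadjusted p under 0.05 (Cyp26a1 in Pld6 KO, adjusted p = 0.445), where all genes gave 8.76% for Pld6 KO, and 9.08% for Dnmt3L KO. The spread in these tests comes from the 2 controls alone, with 1 residual degree of freedom. The reported edgeR fit called 0% of all genes in either mutant, so the tests say little for or against a change. DESeq2 called 5.46% of all genes in Pld6 KO and 5.26% in Dnmt3L KO. A further edgeR fit, added after the data were seen, took the line as a block and estimated 1 mutant effect over both lines, also with 1 residual degree of freedom. It called 0 of the 9 genes and 7.28% of all genes. At an unadjusted p under 0.05 there were 3 of 9, against 18.8% of all genes, namely Aldh1a1 (log2 difference 1.42, edgeR adjusted p = 0.0938), Cyp26b1 (1.27, adjusted p = 0.171) and Aldh1a2 (-0.63, adjusted p = 0.206).

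Next, Pld6 KO was compared with Pld6 WT and Dnmt3L KO with Dnmt3L Het. These comparisons share no library, and each is 1 library against 1, with no test. In the Pld6 line, 2 of 8 genes, Aldh1a1 and Cyp26b1, were more than 2-fold higher in the KO (7.41% of all genes) and 0 were more than 2-fold lower (9.95%). In the Dnmt3L line 0 of 8 were more than 2-fold higher (4.61%) or lower (12%). The median log2 difference of the 8 genes was 0.16 in the Pld6 line and -0.20 in the Dnmt3L line, where the medians of all genes were 0.0067 and 0.063. Against the control of the other line the sign of both medians was opposite, at -0.64 for Pld6 KO and 1.503 for Dnmt3L KO. The medians of all genes also changed sign there, to -0.042 and -0.076. The direction was the same in both lines for 7 of the 8 genes, against 67.3% of all genes, with Stra6 the exception.

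**Figure D2:**
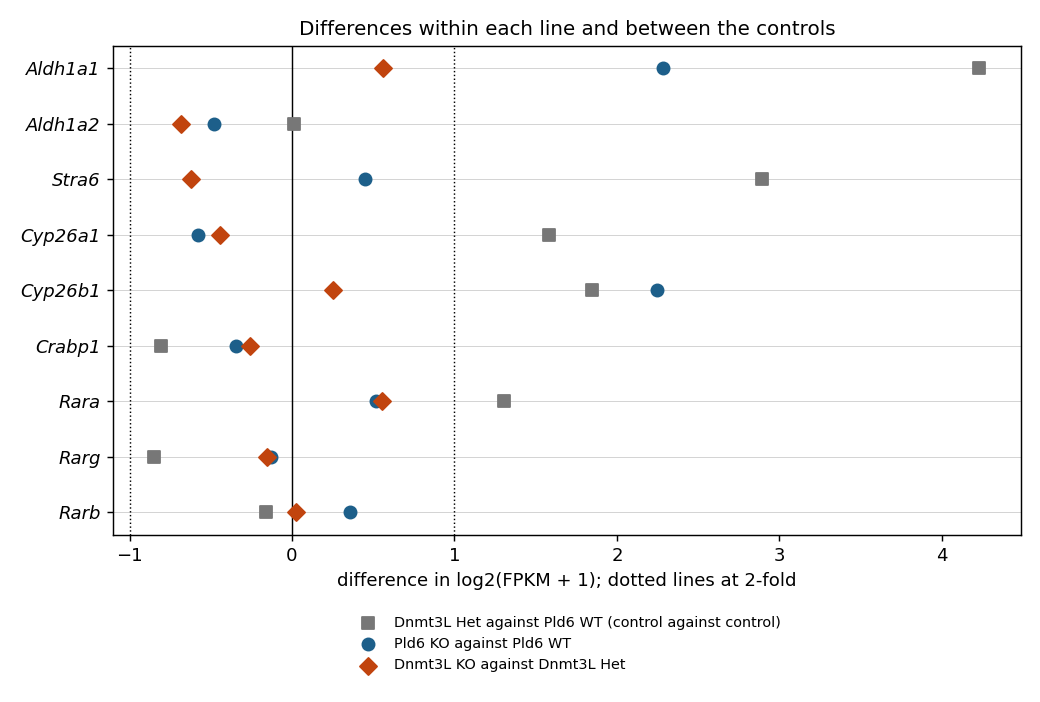
Differences in log2(FPKM + 1) for each retinoic acid gene, within the Pld6 line (circles), within the Dnmt3L line (diamonds) and between the controls (squares). The squares lie farthest from 0 for Aldh1a1 (4.23), Stra6 (2.89), Cyp26b1 (1.84), Cyp26a1 (1.58) and Rara (1.30), while Aldh1a2 has a control difference of 0.01 and both mutants below 0.

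The 2 synthesis enzymes among the 9 genes had unlike transcript patterns. Aldh1a1 (chromosome 19, 20492583 to 20643463, plus strand, GRCm38, the same build as mm10) encodes a retinaldehyde dehydrogenase that in the testis is known from Sertoli and Leydig cells. It was at 268 FPKM in Dnmt3L Het, 395 FPKM in Dnmt3L KO, 13.3 FPKM in Pld6 WT and 68.9 FPKM in Pld6 KO. The Dnmt3L libraries were both far above the Pld6 libraries, and the controls were 20.1-fold apart. Within lines, Aldh1a1 was 5.17-fold higher in Pld6 KO than in Pld6 WT and 1.47-fold higher in Dnmt3L KO than in Dnmt3L Het. The direction in Pld6 KO rests on the control used, since the log2 difference was 2.29 against Pld6 WT and -1.94 against Dnmt3L Het. Summed Sertoli markers were 2.63-fold higher in Pld6 KO than in Pld6 WT (15 of 16 genes higher), 1.28-fold higher in Dnmt3L KO than in Dnmt3L Het (16 of 16) and 35.3-fold apart between the controls. Leydig markers were 9.14-fold higher in Pld6 KO than in Pld6 WT (7 of 7), with Cyp17a1 at 41.0 against 4.82 FPKM and Insl3 at 142 against 14.7 FPKM. In the Dnmt3L line they were 1.01-fold (3 of 7 higher). The part of these cells in the Aldh1a1 values was not tested. Per 100 FPKM of Sertoli markers, Aldh1a1 stood at 2.21, 2.54, 3.88 and 7.61 FPKM in Dnmt3L Het, Dnmt3L KO, Pld6 WT and Pld6 KO. Relative to 100 FPKM of Leydig markers it stood at 80.9 FPKM (Dnmt3L Het), 118 FPKM (Dnmt3L KO), 51.4 FPKM (Pld6 WT) and 29.0 FPKM (Pld6 KO), lower in Pld6 KO than in Pld6 WT. Aldh1a7, a close copy of Aldh1a1 in the genome, had the same order of libraries at 19.3, 32.6, 1.06 and 3.46 FPKM (Dnmt3L Het, Dnmt3L KO, Pld6 WT, Pld6 KO), and reads shared by the pair could make both values uncertain.

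Aldh1a2 (chromosome 9, 71215789 to 71296243, plus strand) encodes the enzyme that makes most retinoic acid in the embryo and is known from meiotic germ cells in the testis. It was at 55.2 FPKM in Dnmt3L Het and 54.7 FPKM in Pld6 WT, at 34.1 FPKM in Dnmt3L KO and at 39.0 FPKM in Pld6 KO. The controls were 1.01-fold apart, at 55.0 ± 0.367 FPKM (mean and SD, n = 2), and both mutants lay below them, at 61.7% and 70.7% of the higher control. This is the closest agreement between controls among the 9 genes. It did not pass the edgeR test, with an adjusted p of 0.907 in Dnmt3L KO and 1 in Pld6 KO. The summed pachytene spermatocyte markers were lower in the mutants by a larger factor. They stood at 77.0 FPKM in Dnmt3L KO and 89.1 FPKM in Pld6 KO against 1118 and 656 FPKM in Dnmt3L Het and Pld6 WT. Pgk2, the glycolytic kinase of late germ cells, was at 0.258 and 0.0227 FPKM against 87.7 and 40.2 FPKM. Per 100 FPKM of pachytene markers, Aldh1a2 was higher in the mutants, at 44.2 FPKM (Dnmt3L KO) and 43.8 FPKM (Pld6 KO). The controls were at 4.94 FPKM (Dnmt3L Het) and 8.34 FPKM (Pld6 WT). The sum of L/Z markers was also lower in each mutant than in its own control, at 0.571-fold in the Dnmt3L line and 0.549-fold in the Pld6 line. Per 100 FPKM of L/Z markers, Aldh1a2 stood at 2.44 FPKM in Dnmt3L Het, 2.64 FPKM in Dnmt3L KO, 1.47 FPKM in Pld6 WT and 1.91 FPKM in Pld6 KO, so that relative to these markers it was not lower in either mutant. Per 100 FPKM of spermatogonial markers it was, at 7.00 FPKM in Dnmt3L KO and 6.28 FPKM in Pld6 KO against 9.80 FPKM (Dnmt3L Het) and 8.497 FPKM (Pld6 WT). Most of the spermatogonial sum was the single gene Uchl1, at 474 of 644 FPKM in Pld6 WT. The part of these germ cells in the Aldh1a2 values was not tested.

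The share of Aldh1a1 in the summed level of the 2 enzymes was 82.9% in Dnmt3L Het, 92.1% in Dnmt3L KO, 19.6% in Pld6 WT and 63.8% in Pld6 KO. Aldh1a2 was thus the more abundant transcript only in Pld6 WT, the library with the lowest Sertoli and Leydig markers. The share was higher in each mutant than in its own control.

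The 9 genes also hold 2 enzymes of breakdown. Cyp26b1 (chromosome 6, 84571414 to 84593908, minus strand) encodes the enzyme that clears retinoic acid in the fetal testis and thereby keeps male germ cells out of meiosis. It was at 37.6 FPKM in Dnmt3L Het, 44.9 FPKM in Dnmt3L KO, 9.75 FPKM in Pld6 WT and 49.9 FPKM in Pld6 KO. The Pld6 WT was low and the other 3 libraries lay close together. Cyp26b1 was 5.12-fold higher in Pld6 KO than in Pld6 WT and 1.20-fold higher in Dnmt3L KO than in Dnmt3L Het. The summed Leydig markers had their lowest level in the same library, as did the Sertoli, macrophage, and peritubular and vascular markers. Leydig markers summed to 331 FPKM in Dnmt3L Het, 333 FPKM in Dnmt3L KO, 25.9 FPKM in Pld6 WT and 237 FPKM in Pld6 KO. Peritubular and vascular markers were also higher with Cyp26b1 in the Pld6 line, at 4.27-fold in the KO (9 of 9 genes). They were not in the Dnmt3L line, where their sum was 0.533-fold (1 of 9 genes higher). Among them Myh11, the smooth muscle myosin of peritubular cells, was at 53.4, 48.5, 15.5 and 80.1 FPKM in Dnmt3L Het, Dnmt3L KO, Pld6 WT and Pld6 KO. The endothelial gene Pecam1 was at 2.43, 1.37, 2.14 and 7.23 FPKM in the same order. The part of these cells in the Cyp26b1 values was not tested. Cyp26b1 stood, per 100 FPKM of these markers, at 6.20 FPKM in Dnmt3L Het, 13.9 FPKM in Dnmt3L KO, 6.84 FPKM in Pld6 WT and 8.19 FPKM in Pld6 KO. Relative to 100 FPKM of Leydig markers it stood at 11.3, 13.5, 37.6 and 21.0 FPKM in Dnmt3L Het, Dnmt3L KO, Pld6 WT and Pld6 KO.

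Cyp26a1 (chromosome 19, 37697738 to 37701536, plus strand) encodes the other clearing enzyme, a classical target of retinoic acid with the repeat printed above. Its levels were 10.02 FPKM in Dnmt3L Het, 7.12 FPKM in Dnmt3L KO, 2.67 FPKM in Pld6 WT and 1.46 FPKM in Pld6 KO. It was lower in the mutant than in its own control in both lines, at 0.711-fold in the Dnmt3L line and 0.545-fold in the Pld6 line, and the controls were 3.75-fold apart. The value of Pld6 KO rests on 73 fragments (exact Poisson 95% interval 57.2 to 91.8, or 1.14 to 1.83 FPKM) and that of Pld6 WT on 172 fragments (147 to 200 fragments, or 2.29 to 3.11 FPKM). These intervals do not overlap, but they cover counting error only. Cyp26b1 exceeded Cyp26a1 by 3.75-fold in Dnmt3L Het, 3.64-fold in Pld6 WT and 6.31-fold in Dnmt3L KO, and by 34.2-fold in Pld6 KO. That ratio was alike in the controls, although each gene by itself differed more than 2-fold between them. Cyp26a1 stood, per 100 FPKM of Sertoli markers, at 0.0825, 0.0458, 0.778 and 0.161 FPKM in Dnmt3L Het, Dnmt3L KO, Pld6 WT and Pld6 KO, and their part in its values was not tested.

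Stra6 and Crabp1 bring vitamin A into cells and hold retinoic acid in them. Stra6 (chromosome 9, 58063793 to 58154004, plus strand) encodes the receptor for the retinol carrier of the blood. It was at 8.83 FPKM in Dnmt3L Het, 5.402 FPKM in Dnmt3L KO, 0.325 FPKM in Pld6 WT and 0.811 FPKM in Pld6 KO. The Dnmt3L libraries were high and the Pld6 libraries low, with the controls 27.1-fold apart. Relative to its own control it was 0.612-fold in Dnmt3L KO and 2.49-fold in Pld6 KO, where the values rest on 34 fragments (95% interval 23.5 to 47.5) in Pld6 WT and 66 (51.0 to 84.0) in Pld6 KO. On the log2(FPKM + 1) scale these differences are -0.62 and 0.45, a scale that understates changes of low genes. Per 100 FPKM of Sertoli markers, Stra6 stood at 0.0728, 0.0347, 0.0947 and 0.0896 FPKM in Dnmt3L Het, Dnmt3L KO, Pld6 WT and Pld6 KO, close together except in Dnmt3L KO, where it was lower. The part of Sertoli cells in the Stra6 values was not tested.

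Crabp1 (chromosome 9, 54764748 to 54773110, plus strand) encodes a cytoplasmic protein that binds retinoic acid and is known from spermatogonia. It was at 197 FPKM in Pld6 WT, 154 FPKM in Pld6 KO, 112 FPKM in Dnmt3L Het and 93.5 FPKM in Dnmt3L KO. This was the highest of the 9 genes in both Pld6 libraries and the next after Aldh1a1 in both Dnmt3L libraries. The mutant was below its own control in both lines, at 0.785-fold and 0.836-fold in the Pld6 and the Dnmt3L line, and Pld6 KO lay between the controls. Spermatogonial markers summed to 563, 487, 644 and 621 FPKM in Dnmt3L Het, Dnmt3L KO, Pld6 WT and Pld6 KO. Most of this sum was the single gene Uchl1, at 400, 372, 474 and 468 FPKM in that order. The 10 markers did not move together, with 5 higher in Pld6 KO and 6 higher in Dnmt3L KO than in the own control, and the rest lower. Per 100 FPKM of that sum, Crabp1 stood at 19.9, 19.2, 30.6 and 24.9 FPKM in the same order. Their part in the Crabp1 values was not tested.

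**Figure D3:**
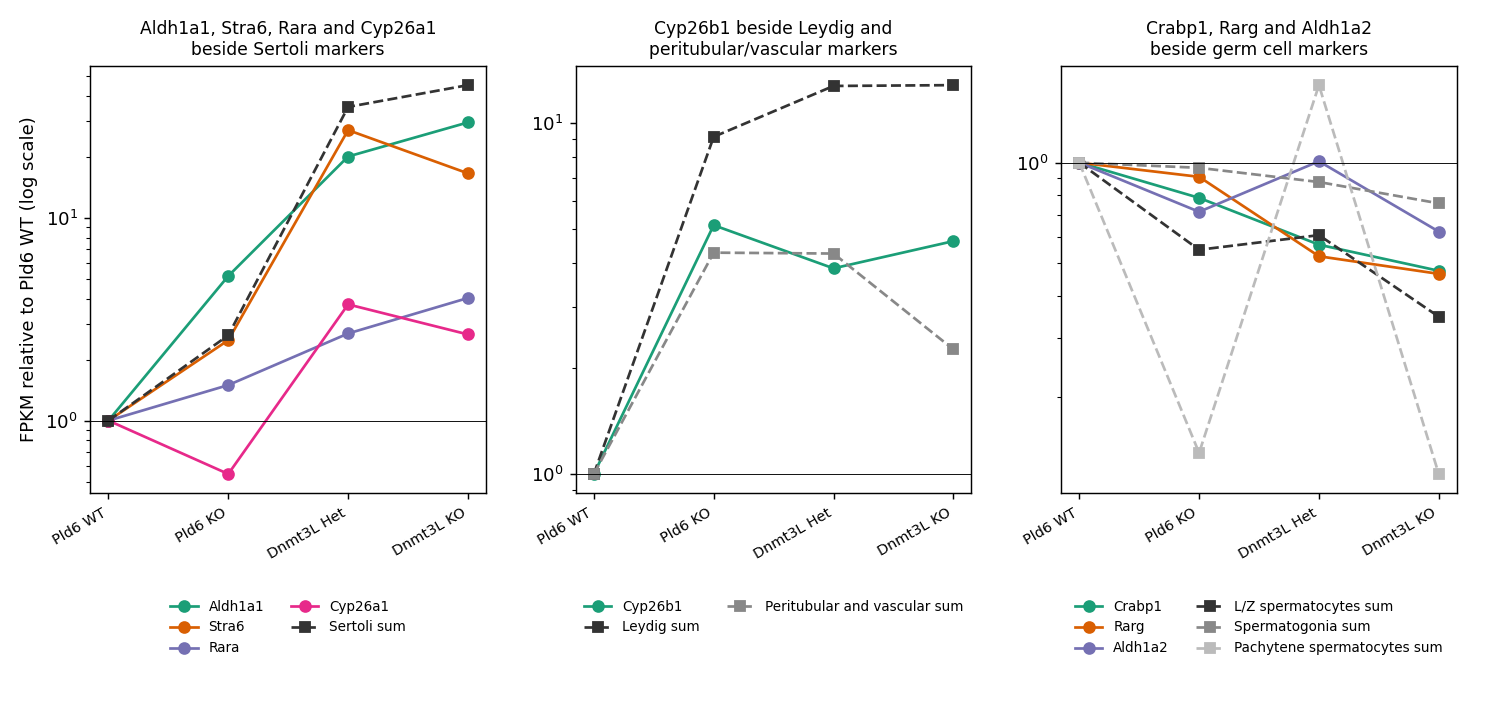
FPKM of retinoic acid genes (solid lines) and summed FPKM of cell type markers (dashed lines) in each library, as a ratio to Pld6 WT on a log axis. The libraries have no order, and lines only join points of the same gene or list. Stra6 and Aldh1a1 are 27.1-fold and 20.1-fold higher in Dnmt3L Het than in Pld6 WT beside a Sertoli sum that is 35.3-fold higher. Aldh1a2 is at 0.617-fold (Dnmt3L KO) and 0.713-fold (Pld6 KO) of its own control. The pachytene sum is far lower, at 0.0689-fold and 0.136-fold (77.0 and 89.1 FPKM).

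The 3 nuclear receptors differed in which library held most of them. Rara (chromosome 11, 98927800 to 98974942, plus strand) encodes the receptor that is needed both in Sertoli cells and in germ cells. It was at 18.0 FPKM in Dnmt3L Het, 27.0 FPKM in Dnmt3L KO, 6.70 FPKM in Pld6 WT and 10.02 FPKM in Pld6 KO. It was 1.497-fold higher in the mutant than in its own control in both lines, and the controls were 2.69-fold apart. The Pld6 KO lay between the controls and Dnmt3L KO above them, where the edgeR adjusted p was 0.848. Rara stood, per 100 FPKM of Sertoli markers, at 0.148, 0.173, 1.95 and 1.11 FPKM in Dnmt3L Het, Dnmt3L KO, Pld6 WT and Pld6 KO, so its level differed less between the lines than theirs did. The part of Sertoli cells in the Rara values was not tested.

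Rarg (chromosome 15, 102234938 to 102257522, minus strand) encodes the receptor of differentiating spermatogonia. It was at 14.4 FPKM in Pld6 WT, 13.03 FPKM in Pld6 KO, 7.54 FPKM in Dnmt3L Het and 6.68 FPKM in Dnmt3L KO. The lines did not overlap, and within them the mutant was at 0.907-fold (Pld6) and 0.886-fold (Dnmt3L) of its own control, less than the 0.525-fold difference of Dnmt3L Het from Pld6 WT. Rara exceeded Rarg by 2.39-fold in Dnmt3L Het and 4.04-fold in Dnmt3L KO, while in Pld6 WT and Pld6 KO it was at 0.466-fold and 0.770-fold of Rarg. The summed level of the receptors varied less, from 21.6 FPKM in Pld6 WT to 34.1 FPKM in Dnmt3L KO.

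Rarb (chromosome 14, 16430839 to 17082331, minus strand) encodes a receptor that is itself induced by retinoic acid. It was the lowest of the 9 genes in Dnmt3L Het (0.411 FPKM, 76 fragments) and in Dnmt3L KO (0.433 FPKM, 59 fragments), and the lowest but for Stra6 in Pld6 WT (0.576 FPKM, 67 fragments) and in Pld6 KO (1.02 FPKM, 93 fragments). In fragments the 95% intervals were 59.9 to 95.1, 44.9 to 76.1, 51.9 to 85.1 and 75.1 to 114 in that order. In FPKM the interval of Pld6 KO (0.824 to 1.25) lay above those of the other libraries, whose upper bounds reached 0.732. Rarb and Cyp26a1, which both hold the repeat printed above, were highest in different libraries, Rarb in Pld6 KO and Cyp26a1 in Dnmt3L Het. In the Pld6 KO Cyp26a1 had its lowest level and Rarb its highest.

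In order of level, the Dnmt3L Het and Dnmt3L KO both had Aldh1a1 first and Crabp1 second, and Pld6 WT had Crabp1 first and Aldh1a2 second. In the Pld6 KO, Crabp1 was followed by Aldh1a1 and Cyp26b1. Stra6, Cyp26a1 and Rarb held places 6 to 9 in every library. Levels of neighbours such as Aldh1a2 and Cyp26b1, at 55.2 and 37.6 FPKM in Dnmt3L Het, changed places between libraries. In the Pld6 KO they stood at 39.0 and 49.9 FPKM, so their order is not fixed beyond the spread between libraries.

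Genes with the most similar pattern were sought for the 6 genes whose log2(FPKM + 1) spanned more than 1 over the libraries, by the root mean square difference of centred values over 4 libraries among 14415 other genes. The closest to Aldh1a1 was Gstm2 (0.097), with Drd4 and Hspb1 next, and to Stra6 U90926 (0.14), Creg1 and Msrb2. The closest to Cyp26b1 were Junb (0.029), Lamc3 and Col4a4, which encode a transcription factor and chains of laminin and type IV collagen in basement membranes. Cyp26a1 was closest to Pebp1 (0.062), Agpat3 and Spcs1. For Crabp1 (Gm7030, Aldoc and Hook1) and Rara (Pnrc1, Gcnt4 and Mir22hg) the nearest genes stand for many, since 813 and 336 genes lay within 0.2, against 4 for Aldh1a1 and 5 for Stra6. With 4 libraries this likeness is a description only.

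The wider pathway was examined in 3 lists. The vitamin A handling list (24 genes: carriers, retinol and alcohol dehydrogenases, further ALDH1A and CYP26 enzymes) had 15 genes with a mean of at least 1 FPKM. Of these 15, 0 were more than 2-fold above both controls in Pld6 KO (1.51% of all genes) and 2 more than 2-fold below (8.57%). In Dnmt3L KO 1 was that far above (3.29% of all genes) and 1 that far below (9.16%). Rdh11, a retinol dehydrogenase of the endoplasmic reticulum, was lower in both mutants, at 8.70 FPKM in Dnmt3L KO and 11.2 FPKM in Pld6 KO against 39.2 and 27.6 FPKM in Dnmt3L Het and Pld6 WT. Adh4 had 0 fragments in Pld6 KO and 58 in Pld6 WT, at least 15.1-fold lower by a floor of 3 fragments, and was at 5.99 FPKM in Dnmt3L KO and 6.02 FPKM in Dnmt3L Het. Fabp5, which carries retinoic acid and fatty acids, reached 129 FPKM in Dnmt3L KO against 60.1 FPKM in Dnmt3L Het, and 20.7 FPKM in Pld6 KO against 7.87 FPKM in Pld6 WT. By edgeR, 0 of 23 tested genes of this list passed in either mutant, and at an unadjusted p under 0.05 there were 1 (Adh4, Pld6 KO) and 2 (Rdh11 and Rdh12, Dnmt3L KO), beside 7.96% and 8.81% of all genes.

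Of the list of RXR partners and coregulators, 15 of 16 genes reached a mean of 1 FPKM. In the Pld6 KO 0 lay more than 2-fold beyond both controls (1.51% of all genes above and 8.57% below). The median log2 difference from Pld6 WT was -0.061 against 0.0067 for all genes (0.54 from Dnmt3L Het, against -0.042 for all genes). In the Dnmt3L KO 2 were more than 2-fold above both controls (3.29% of all genes) and 0 more than 2-fold below (9.16%). Those above were the coactivator gene Ncoa2 (65.7 FPKM against 30.9 and 16.3 FPKM in Dnmt3L Het and Pld6 WT) and the corepressor gene Nrip1 (9.45 FPKM against 3.73 and 2.22 FPKM). The median log2 difference of this list from Dnmt3L Het was 0.48, against 0.063 for all genes. From Pld6 WT it was -0.22, against -0.076 for all genes, and 7 of the 15 genes lay between the controls (30.5% of all genes). Rxrb, the most abundant RXR gene, stayed between 34.4 and 37.9 FPKM in all libraries. In edgeR 0 of 16 passed in either mutant, with 0 at an unadjusted p under 0.05.

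Among genes known to be induced by retinoic acid, 11 of the 12 listed were found in the table and 8 reached a mean of 1 FPKM. In the Pld6 KO 1 was more than 2-fold above both controls (1.51% of all genes) and 0 more than 2-fold below (8.57%). The 1 above was the stem cell factor receptor gene Kit, at 86.4 FPKM against 16.0 FPKM in Dnmt3L Het and 40.4 FPKM in Pld6 WT. Kit was at 24.8 FPKM in Dnmt3L KO. In the Dnmt3L KO 0 were more than 2-fold beyond both controls (3.29% of all genes above and 9.16% below). Stra8, the gatekeeper of meiotic entry, was at 164, 108, 187 and 162 FPKM in Dnmt3L Het, Dnmt3L KO, Pld6 WT and Pld6 KO, and Rec8, which encodes the meiotic cohesin, at 34.7, 31.2, 24.1 and 29.99 FPKM. Both genes varied less over the libraries than Aldh1a1, Stra6 or the Cyp26 genes. Tgm2 was 4.35-fold higher in Pld6 KO than in Pld6 WT (39.7 and 9.13 FPKM) and at 38.3 and 30.3 FPKM in Dnmt3L Het and Dnmt3L KO, the order seen for Cyp26b1 in the Pld6 line. By edgeR 0 of 11 passed in either mutant, and 0 had an unadjusted p under 0.05.

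**Figure D4:**
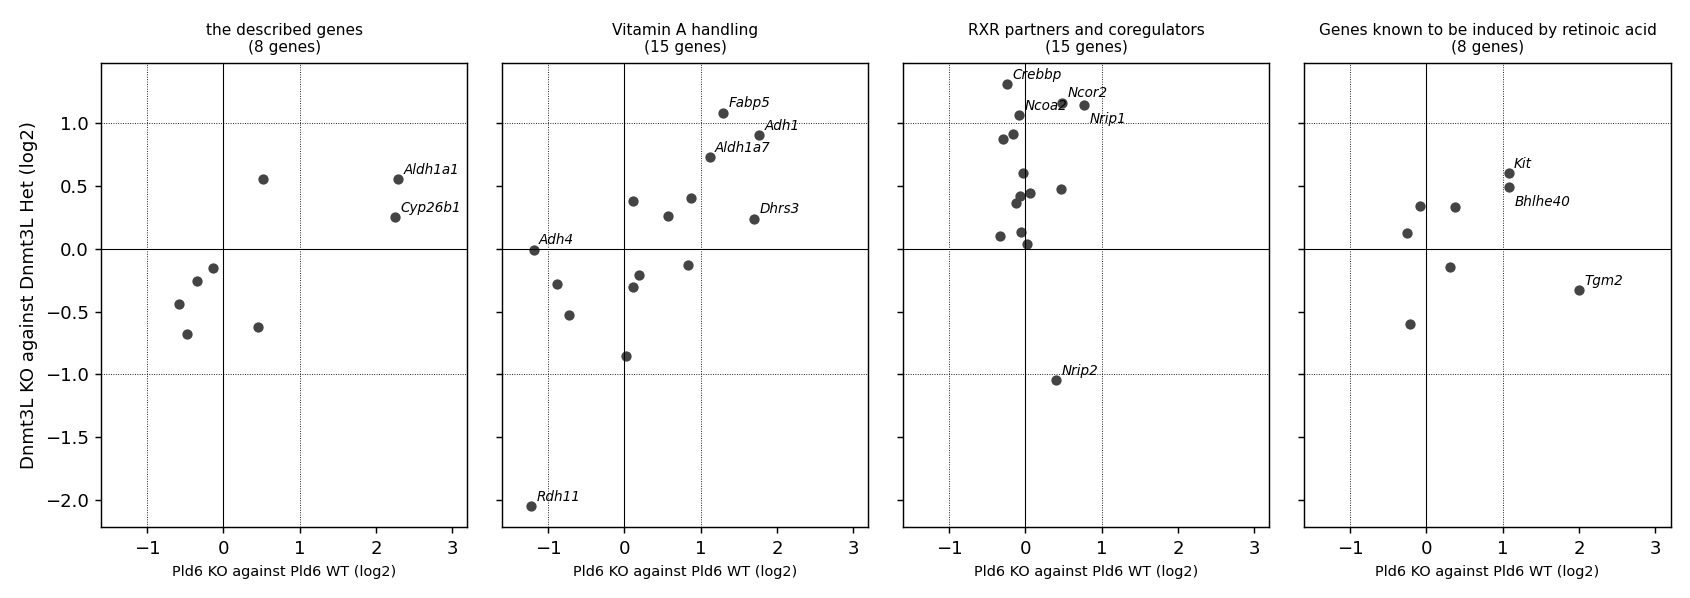
Log2(FPKM + 1) difference of Pld6 KO against Pld6 WT (horizontal) and of Dnmt3L KO against Dnmt3L Het (vertical) for genes with a mean of at least 1 FPKM, in 4 panels: the retinoic acid genes described here and the wider lists. Each point is a gene, dotted lines mark 2-fold, and genes beyond them are named. Rdh11 is lower and Fabp5 higher in both lines, while Aldh1a1, Cyp26b1 and Tgm2 are more than 2-fold higher in the Pld6 line alone (1 library against 1, the difference between lines not tested).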

How the data were processed

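Per the labels and the study's methods, the authors made stranded polyA(+) libraries (TruSeq), sequenced 50 bp from 1 end, aligned reads to mm10 by TopHat2 and estimated the levels of RefSeq genes by Cuffdiff (versions not given in the sources used here). The deposited table holds expected counts (estimated fragments per gene, 97.3% to 97.4% of them exactly whole as deposited, with no tolerance) and FPKM, which the authors' tool scaled to length and depth. For 28 genes a value was marked as failed, none of them described here.

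The 9 genes and all lists were chosen with earlier results of these data known. Differences were computed as log2(FPKM + 1), and counts over genes with a mean of at least 1 FPKM. Further named genes are those of 3 pathway lists more than 2-fold beyond both controls, the 3 most similar genes per member, some defining markers and Pld6 and Dnmt3l. Genes named beyond that rule (Stra8, Rec8, Rxrb, Tgm2, Aldh1a7, Catsper1, Rdh12, Uchl1) were added after their values were seen. Older symbols were matched through RefSeq for 4 list genes. The marker lists covered 8 cell types. The summed macrophage markers were 74.6, 139, 24.3 and 62.5 FPKM in the Dnmt3L Het, Dnmt3L KO, Pld6 WT and Pld6 KO.

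edgeR 4.0.16 (quasi-likelihood, TMM, filterByExpr) and DESeq2 1.42.0 were run in R 4.3.3 on expected counts rounded to whole numbers, with 4 libraries in 3 groups. The edgeR script was tested on simulated data, with its pass judged at a smaller spread than that of these data. The test does not show how well changes would be found here. The p-values of the fits with 3 groups measure only the spread between the 2 controls, which differ in line and genotype. Those of the fit with the line as a block rest on how the mutant difference disagrees between the 2 lines. Fragments carry no molecular identifiers, so intervals and floors cover counting error only, and fragment totals exceed the reads per sample given in the methods, so the intervals may be too narrow.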

Additional observations from a re-analysis of the deposited data

Results flagged for a closer look

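Stra6 was the single gene of the 8 counted with opposite directions in the 2 lines, each against its own control. The log2(FPKM + 1) difference was 0.45 in the Pld6 KO and -0.62 in the Dnmt3L KO. Each is 1 library against 1, so whether the lines differ was not tested. Summed Sertoli markers were higher in both mutants than in their own controls, by 2.63-fold in the Pld6 line and 1.28-fold in the Dnmt3L line.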

How the results depend on the processing

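The count of retinoic acid genes more than 2-fold beyond the controls depended on which control was used. It was 0 with both. In the Pld6 KO it was 2 (both higher: Aldh1a1, Cyp26b1) without the Dnmt3L Het and 3 (all lower: Aldh1a1, Cyp26a1, Stra6) without the Pld6 WT. In the Dnmt3L KO it was 6 (5 higher, and Crabp1 lower) without the Dnmt3L Het and 0 without the Pld6 WT. Against the own control, the background over all genes was 7.41% up and 9.95% down (Pld6 line), and 4.61% and 12% (Dnmt3L line). For the counts of 3 and 6, taken against the other line, no such background was computed. The controls alone were more than 2-fold apart in 23.7% of all genes. With both controls, a threshold of 1.5-fold gave a count of 1 in the Dnmt3L KO (Aldh1a2, lower). A pseudocount of 0.1 FPKM, a threshold of 3-fold, no filter on low values and TMM-scaled fragments left both counts at 0. The share of all genes was not computed at these settings or at 1.5-fold, so these counts have no background. The log2 difference of Aldh1a1 in the Pld6 KO turned from 2.29 to -1.02 against the mean of both controls and to -1.94 against the Dnmt3L Het. The cause was not tested. The own-line differences (18 values) all kept their sign with a pseudocount of 0.1 FPKM and with TMM-scaled fragments, and 10 kept it against the control of the other line. In edgeR with RLE size factors or without a filter, and in DESeq2, the number of retinoic acid genes called was 0, as reported. Of all 20568 genes, edgeR without a filter called 8 higher and 429 lower in Pld6 KO. In Dnmt3L KO it called 6 higher and 423 lower. With RLE size factors edgeR called 0 of all genes in either mutant. Leaving out a control leaves no residual degree of freedom in these tests, which were then not run. The labels give no replicate numbers. With the line as a block, an alternative chosen after seeing the data, the number called was also 0. Depth limits Rarb (59 to 93 fragments) and, in the Pld6 line, Stra6 and Cyp26a1.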
